A study of Sus scrofa domesticus with 34 samples.

Results

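Potassium channel genes are described here across 34 libraries from pigs. The members are the genes whose symbol begins with KCN, followed by further letters and a number, and that had at least 10 counts in at least 8 libraries. This rule was met by 61 of the 86 genes of the count tables with such a symbol, out of 31907 genes in all. The count tables pair the genes with Ensembl identifiers only, so that symbols came from a name table. That table gave a symbol to 15029 of the 31907 genes and matched 86 of its 88 potassium channel entries, so that a channel gene without a symbol could not be found by the rule. The 61 members fall into 15 families by the stem of their symbol, with the stems KCNG, KCNS and KCNV joined in 1 family.

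The study fed pigs (Sus scrofa domesticus) 4 diets that differ in the dose and the form of vitamin D and sequenced the 3′ ends of polyadenylated RNA, 1 library per sample, from tissue labelled as muscle. Control pigs (standard cholecalciferol, n = 8) received cholecalciferol, or vitamin D3, at 2000 IU per kg of grower feed and 1500 IU per kg of finisher feed. Increased cholecalciferol (n = 10) raised this to 3000 and 2500 IU. The combination (n = 8) added 1000 IU of 25(OH)D, the form of vitamin D hydroxylated in the liver, to the control doses of each feed. The 25(OH)D diet (n = 8) replaced cholecalciferol by 25(OH)D at 2000 and 1500 IU. Each diet had 4 castrated males, and the rest were females (6 with increased cholecalciferol, otherwise 4). No intact males were used. No source used here gives the age of the pigs or the muscle sampled.

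Potassium channels let potassium ions out of the cell and so set the resting voltage and end each action potential. A channel is built from several pore subunits, and many channels carry further subunits that change their gating or their place in the membrane. In the brain, cell types and regions differ in the channel genes they express. Cerebellar granule cells are known for A-type current through KCND channels, and cortical pyramidal cells for current through KCNB and KCNQ channels.

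The tissue label did not match the cell type markers. Summed over 5 genes each, neuron markers such as SNAP25 reached a median of 4610 CPM (counts per 1 M of the TMM-scaled library size) and astrocyte markers 2092 CPM, against 2435 CPM for skeletal muscle markers (ACTA1, CKM, TNNC2, TNNT3 and MYL1). The 4 measured oligodendrocyte markers, among them MBP and MOG, summed to a median of 4951 CPM. The lowest library still held 3352 CPM of the neuron markers and 803 CPM of the muscle markers, so that transcripts of nerve tissue and of skeletal muscle were present in all 34. Total gene counts ran from 1.34 M to 30.4 M per library. They were 4.08 M to 13.2 M in file numbers 1 to 24, 16.8 M to 30.4 M in 25 to 29 and 1.34 M to 2.69 M in 30 to 34. The last run holds 4 combination libraries and 1 of the 25(OH)D diet. Its 4 females had 5.62 to 7.25 CPM of KDM5D and EIF1AY, both Y chromosome genes, against 0.568 to 4.54 CPM in the other 14 females and 6.79 to 21.9 CPM in the castrated males.

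Libraries also differed in markers of brain regions. The regional score is the mean log2 CPM of the granule cell genes CBLN1 and CBLN3 of the cerebellum minus that of TBR1 and FEZF2, transcription factors of cortical neurons. It ran from 2.39 to 9.59 (median 3.74), and the widest step between neighbouring libraries was 0.70 (from 6.54 to 7.24), with 27 libraries below it and 7 above. File numbers 30 to 34, the shallowest libraries, lay in the middle of the score (5.23 to 6.54). Without them the step was 1.16, and within file numbers 1 to 24 it was 1.74. Its median was 3.23 (2.68 to 9.59) with standard cholecalciferol, 3.54 (2.39 to 9.35) with increased cholecalciferol, 5.40 (3.09 to 8.68) with the combination and 3.62 (2.98 to 7.81) with 25(OH)D. Without the 4 combination libraries of file numbers 30 to 34, the median of that diet was 4.59 (n = 4). A library with a higher score may hold more granule cells or more RNA per granule cell, and in bulk RNA fewer cells of a type and less RNA per cell cannot be told apart. The score correlated with the mean log2 CPM of granule cell markers (r = 0.949, in a list with CBLN1 and CBLN3) and Purkinje cell markers (r = 0.927). For cortical markers r was −0.948, in a list with TBR1 and FEZF2. Microglia markers followed with r = −0.767. Correlations were weaker for oligodendrocytes (r = −0.559), astrocytes (r = −0.460), neurons as a whole (r = 0.434) and endothelium (r = −0.360). Vessel wall (r = −0.297), skeletal muscle (r = −0.074) and liver (r = 0.074) had the weakest.

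Together the 61 members made up 0.150 to 0.243% of the counts of a library (median 0.201%). Their summed level, 1430 to 2374 CPM, did not follow the regional score (r = −0.12, permutation p = 0.498; rho = −0.17, permutation p = 0.333; r = −0.29 without the 2 libraries farthest from the median score). Counts of 3′ ends do not scale with transcript length, so that the levels of different genes can be set side by side, as far as their annotated 3′ ends are complete. KCNK1, a background channel of the tandem-pore kind, was the highest, with a mean of 224 CPM. KCNAB2, a cytoplasmic partner of KCNA channels (192 CPM), and KCNC1, a fast delayed rectifier (108 CPM), were the other 2 members above 100 CPM on average. Among the next were KCND2 (88.8 CPM), KCNA1 (81.6 CPM), KCNJ9 (75.0 CPM), KCNAB3 (69.2 CPM), KCNA3 (67.6 CPM) and KCNJ3 (65.7 CPM). The ranges of neighbours in this order overlapped. The 10 highest members held 54.0% of the members' summed CPM. A further 21 members averaged 1 to 10 CPM, and KCNA2 (0.935 CPM) and KCNG3 (0.727 CPM) lay below 1 CPM.

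**Figure D1:**
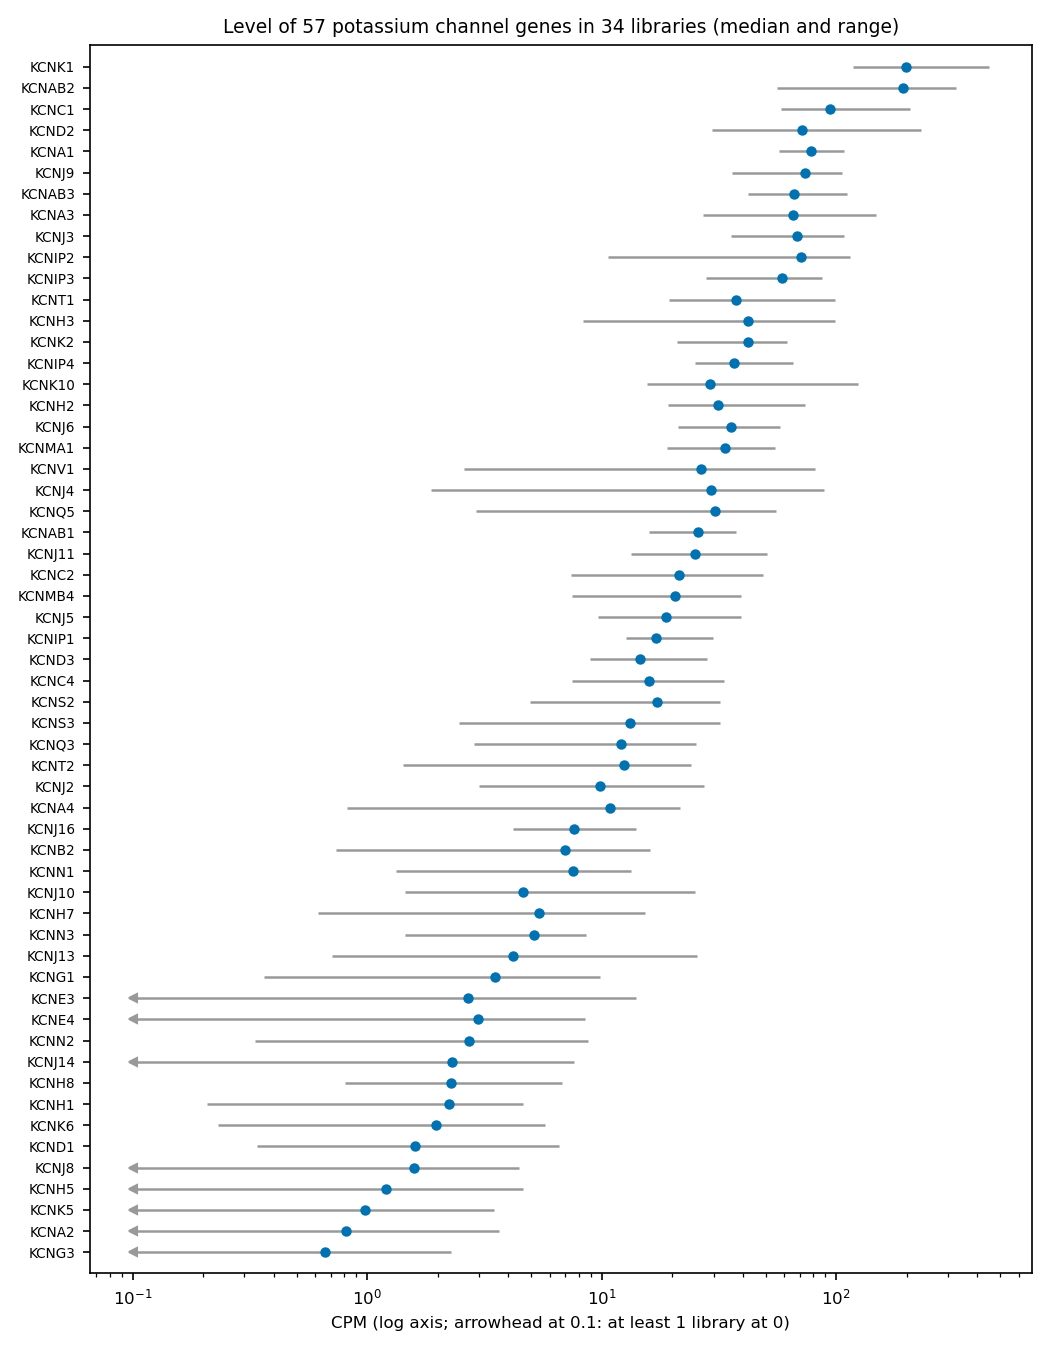
Level of 57 potassium channel genes in CPM (log axis), with the median over 34 libraries as a point and the lowest and highest library as the ends of the line. KCNK1 and KCNAB2 lead, and the lines of KCNV1 and KCNJ4 span more than those of KCNA1 and KCNAB1.

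Along the regional score, 41 of the 61 members changed, 14 rising and 27 falling (edgeR quasi-likelihood test, adjusted over 14455 genes). Among all genes tested, 36.5% changed, 18.5% rising and 18% falling. The median size of the slope was 0.17 log2 units per unit of score among members and 0.06 among all genes, and the median slope was −0.06 and 0.00. With library totals in place of TMM scaling, 20 members rose and 24 fell, while the median slope of all genes moved to 0.05. Within file numbers 1 to 24 alone, 10 rose and 27 fell. The other runs hold 5 libraries each, too few for values of their own. The calls of 34 members (10 rising and 24 falling) held in each of 49 alternative settings, and no member was called in the opposite direction in any of them. At least 1 member fell without an opposing rise in 6 families, such as KCNA (2 of 4 members), KCNE (1 of 2) and KCNG/S/V (5 of 5). Members rose without an opposing fall in 1 family (KCND, 2 of 3 members) and went both ways in 8.

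**Figure D2:**
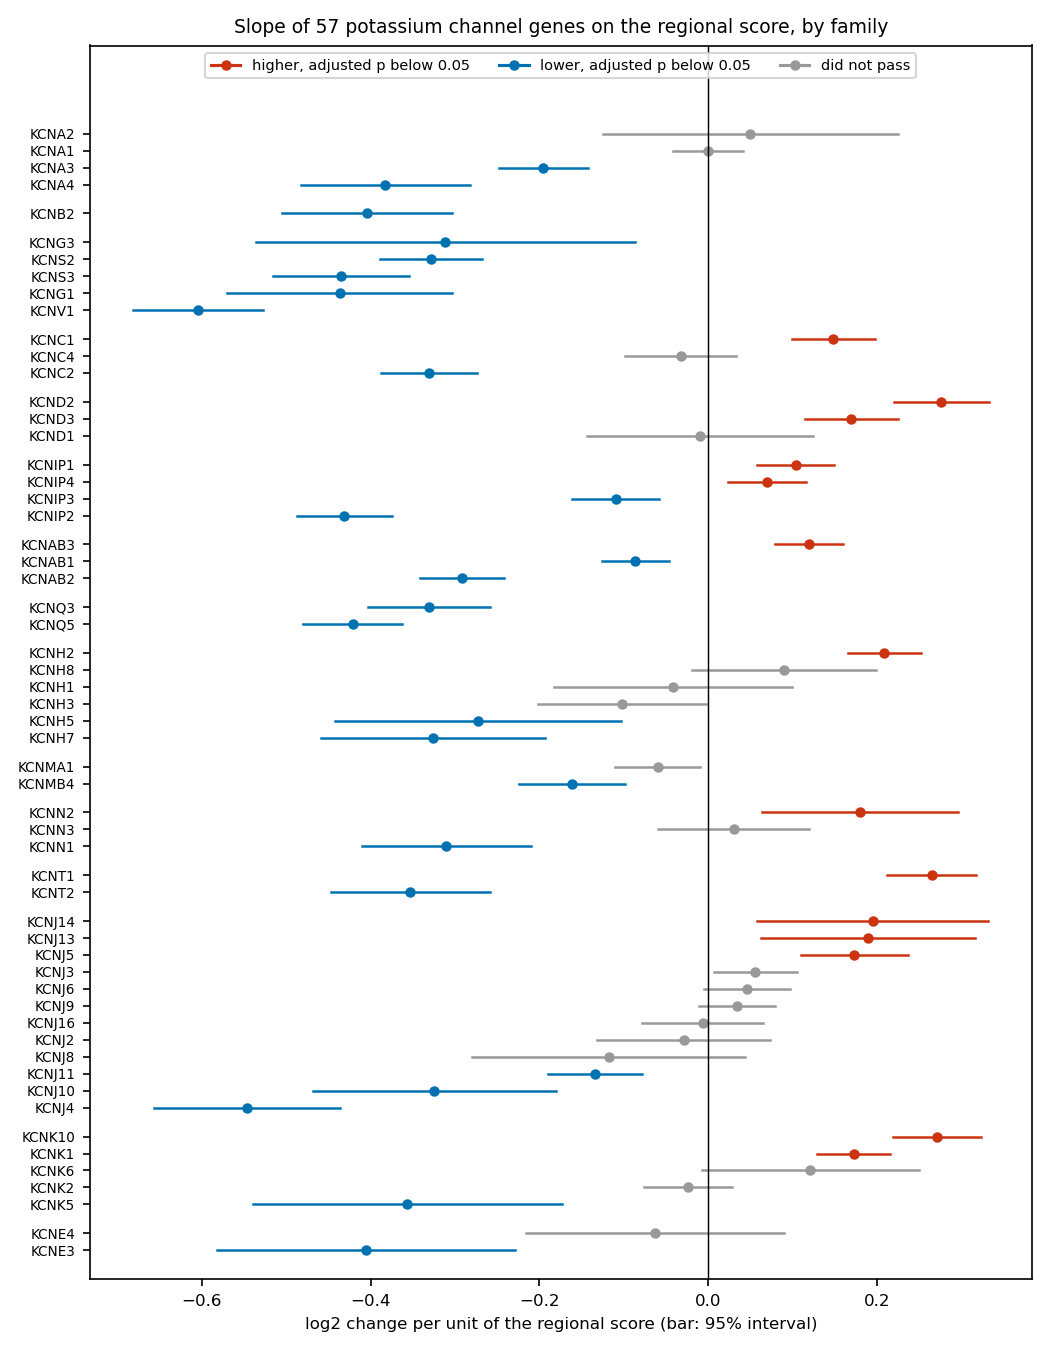
Slope of 57 members on the regional score (log2 change per unit of score, with its 95% interval), grouped by family. Points to the right of 0 are higher in libraries with more cerebellar and fewer cortical transcripts. KCNV1, KCNS3 and KCNB2 lie to the left of 0, whereas KCND2 and KCND3 lie to the right.

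KCNB genes encode delayed rectifiers of neuronal cell bodies, and KCNG, KCNS and KCNV genes encode subunits that form no channel alone but join KCNB subunits. KCNB2 and the silent subunits measured (KCNG1, KCNG3, KCNS2, KCNS3 and KCNV1) fell along the score. KCNV1 (ENSSSCG00000006021) had the steepest slope of all members. It ranged from 2.58 to 80.9 CPM (median 26.6 CPM). It stood at 73.7, 51.6 and 57.1 CPM in the 3 libraries with the lowest score and at 2.58, 3.79 and 3.03 CPM in the 3 with the highest, with no overlap between them. Its slope was −0.60 (SE 0.04, adjusted p = 5.8e-16), and −0.62 within file numbers 1 to 24. Over the range of the score this comes to a 20.4-fold difference. KCNS3 and KCNG1 followed with −0.44 each (adjusted p = 1.04e-11 and 9.84e-07) and medians of 13.3 and 3.52 CPM, and KCNS2 with −0.33 (17.2 CPM). KCNB2, which forms the pore, ranged from 0.739 to 16.1 CPM (slope −0.40, SE 0.05). KCNG3 fell as well (−0.31, adjusted p = 0.0247), but it was at 0 in 5 libraries and lost its call in 6 of the settings that tested it. The setting with the edgeR filterByExpr filter dropped KCNG3 before testing.

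The KCND genes encode the A-type channels of dendrites. KCND2 (ENSSSCG00000016621) ranged from 29.5 to 229 CPM (median 71.8 CPM). It measured 73.5, 48.5 and 59.3 CPM in the 3 libraries with the lowest score and 220, 229 and 170 CPM in the 3 with the highest. The slope was 0.28 (SE 0.03, adjusted p = 1.56e-10), the largest positive slope among the members. KCND3 rose with a slope of 0.17 (SE 0.03) from a median of 14.5 CPM. KCND1 stayed low (0.339 to 6.56 CPM) with a slope of −0.01 (95% interval −0.14 to 0.13).

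KCND channels carry calcium-binding KCNIP subunits, and the 4 KCNIP genes split. KCNIP2 (ENSSSCG00000010570) ranged from 10.7 to 115 CPM (median 70.7 CPM) and correlated with the score (r = −0.95, rho = −0.82, r = −0.95 without the 2 libraries farthest from the median score). It stood at 96.9, 115 and 91.9 CPM at the low end of the score and at 10.7, 17.4 and 15.0 CPM at the high end. Its slope was −0.43 (SE 0.03, adjusted p = 8.78e-16). KCNIP3 fell less steeply (−0.11, adjusted p = 0.000649; 27.7 to 86.8 CPM), while KCNIP1 (0.10, adjusted p = 0.000344; 12.7 to 29.8 CPM) and KCNIP4 (0.07, adjusted p = 0.014; 25.0 to 65.6 CPM) rose. KCNIP4 lost its call without combination replicate 1, within file numbers 1 to 24 and with the muscle and oligodendrocyte scores in the model. Its values overlapped between the low end of the score (58.2, 48.3 and 42.4 CPM) and the high end (65.6, 55.2 and 45.1 CPM). Over all 34 libraries its r with the score was 0.42, while its rho of 0.16 did not pass. In the 27 libraries below the widest step of the score, r was −0.31 and rho −0.43, neither past the adjusted threshold.

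KCNA genes encode the low-threshold channels of axons and presynaptic endings. KCNA1 (ENSSSCG00000000716) was level across the score, at 57.3 to 109 CPM (median 78.4 CPM), with a slope of 0.00 (95% interval −0.04 to 0.04). The interval excludes a change as large as the fall of KCNA3 (27.1 to 148 CPM; slope −0.20, SE 0.03, adjusted p = 1.09e-07). KCNA4, an inactivating KCNA channel, fell more steeply (0.822 to 21.5 CPM, slope −0.38, SE 0.05). KCNA2 was at 0 to 3.64 CPM, with a slope of 0.05 (95% interval −0.12 to 0.22). Of the KCNAB genes, whose products bind KCNA channels from inside the cell, KCNAB2 (ENSSSCG00000020749) fell (56.0 to 325 CPM, median 193 CPM; slope −0.29, SE 0.03, adjusted p = 1.53e-12). KCNAB1 fell (15.9 to 37.4 CPM; slope −0.09, SE 0.02). KCNAB3 rose (42.2 to 111 CPM; slope 0.12, SE 0.02, adjusted p = 7.5e-06). At the low end of the score KCNAB2 stood at 205, 260 and 278 CPM and KCNAB3 at 46.5, 77.7 and 58.5 CPM, and at the high end KCNAB2 was at 59.9, 71.0 and 72.4 CPM and KCNAB3 at 90.5, 92.3 and 104 CPM.

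KCNC genes encode the fast channels that allow high firing rates. KCNC1 (ENSSSCG00000013374) rose from 78.6, 58.4 and 95.7 CPM at the low end of the score to 128, 156 and 195 CPM at the high end (slope 0.15, SE 0.02, adjusted p = 5.31e-06; median 93.7 CPM). KCNC2 fell over the same libraries from 48.8, 33.0 and 23.3 CPM to 8.46, 7.84 and 7.38 CPM (slope −0.33, SE 0.03, adjusted p = 1.59e-12; median 21.5 CPM). KCNC4 had a slope of −0.03 (adjusted p = 0.462).

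KCNQ genes encode the slow M-current channels, which open slowly and hold back repeated firing. KCNQ5 (ENSSSCG00000004281) had 2.90 to 55.5 CPM and a slope of −0.42 (SE 0.03, adjusted p = 4.08e-15). KCNQ3 ranged from 2.86 to 25.3 CPM (median 12.1 CPM) and fell with a slope of −0.33 (SE 0.04).

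In the KCNH group, KCNH2, an ERG channel, rose from 25.0, 22.7 and 24.0 CPM at the low end of the score to 46.6, 55.4 and 62.4 CPM at the high end (slope 0.21, SE 0.02, adjusted p = 2.06e-10). KCNH7, another ERG channel gene, fell (0.616 to 15.3 CPM, slope −0.33, SE 0.07). KCNH5 fell with a slope of −0.27 (adjusted p = 0.00915), and KCNH1, KCNH3 and KCNH8 did not pass. KCNH3 varied more than most members that did not pass, from 8.34 to 99.3 CPM, with a slope of −0.10 (95% interval −0.20 to 0.00).

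Channels opened by intracellular ions showed the same split. KCNT1, a sodium-activated channel gene, rose from 19.4, 21.9 and 25.6 CPM to 57.3, 89.1 and 87.4 CPM between the ends of the score (slope 0.26, SE 0.03, adjusted p = 6.24e-11). Its relative KCNT2 fell from 12.9, 11.7 and 15.8 CPM to 2.94, 3.12 and 2.42 CPM (slope −0.35, SE 0.05, adjusted p = 7.74e-08). Of the small-conductance calcium-activated channels, KCNN1 fell (1.33 to 13.3 CPM; slope −0.31, SE 0.05), KCNN2 rose (0.334 to 8.77 CPM; slope 0.18, SE 0.06, adjusted p = 0.0124) and KCNN3 did not pass (1.45 to 8.57 CPM). KCNN2 lost its call without increased cholecalciferol replicate 1, within file numbers 1 to 24 and in 2 further settings. KCNMA1, the pore of the large-conductance channel, lay at 19.0 to 54.8 CPM with a slope of −0.06 (adjusted p = 0.0529), and passed in 13 of the 49 settings. KCNMB4, its neuronal partner subunit, fell (7.51 to 39.2 CPM; slope −0.16, SE 0.03).

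**Figure D3:**
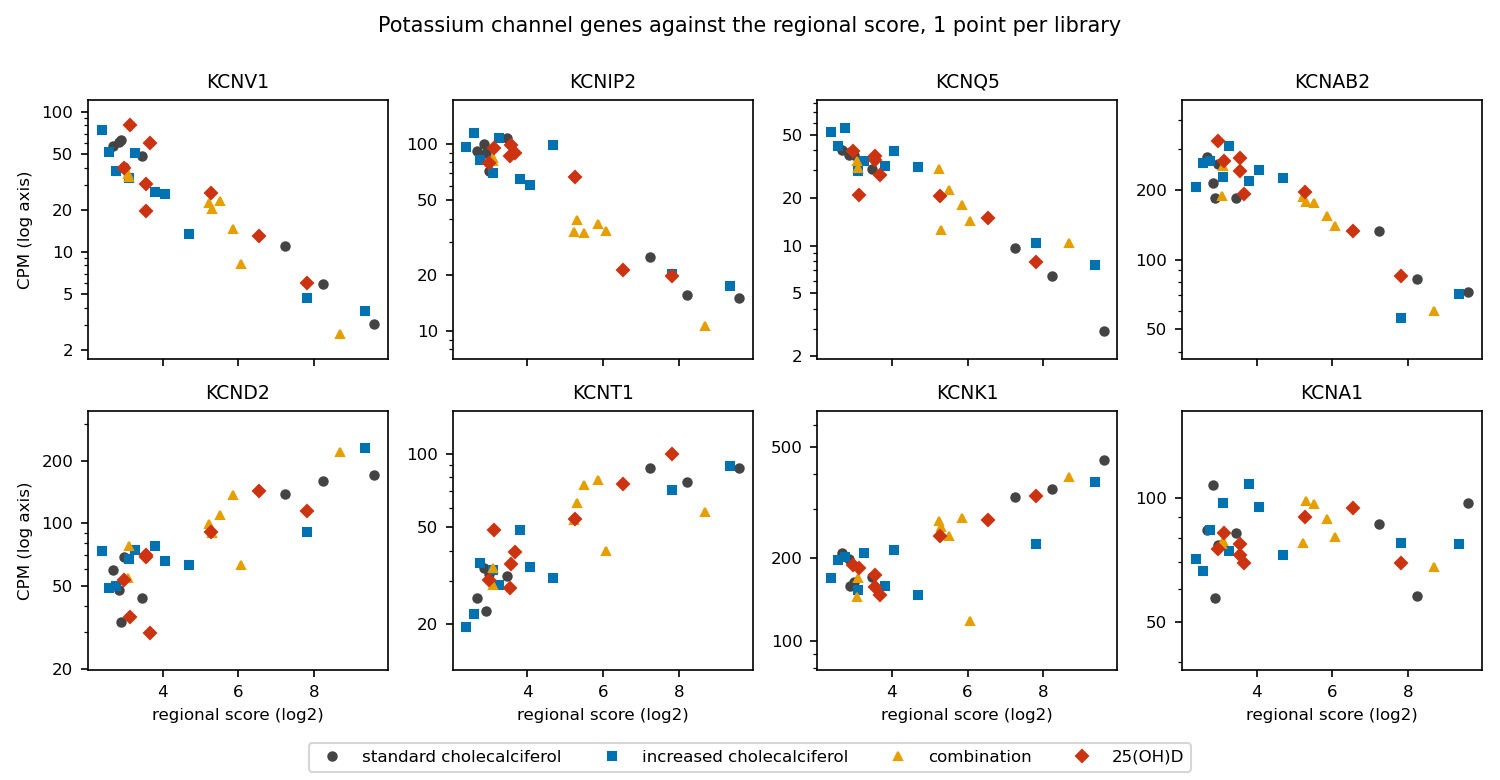
CPM (log axis) of 8 members against the regional score, with 1 point per library and 1 marker per diet. KCNV1, KCNIP2, KCNQ5 and KCNAB2 fall with the score, KCND2, KCNT1 and KCNK1 rise, and KCNA1 stays between 57.3 and 109 CPM.

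The 12 inward rectifier genes (KCNJ) divided into 3 that rose, 3 that fell and 6 that did not pass. KCNJ4, a strong rectifier of forebrain neurons, fell most (1.88 to 88.4 CPM, median 29.4 CPM; slope −0.55, SE 0.05, adjusted p = 9.96e-11). It stood at 35.4, 33.4 and 46.8 CPM at the low end of the score and at 1.88, 4.12 and 1.94 CPM at the high end. The G protein-gated channels are built from KCNJ3, KCNJ5, KCNJ6 and KCNJ9. KCNJ5 rose (9.66 to 39.2 CPM; slope 0.17, SE 0.03, adjusted p = 2.57e-05). KCNJ3 (35.7 to 108 CPM), KCNJ9 (36.1 to 106 CPM) and KCNJ6 (21.1 to 57.3 CPM) had slopes of 0.06, 0.03 and 0.05, with adjusted p of 0.0695, 0.239 and 0.157. KCNJ11, the pore of the ATP-sensitive channel, fell (13.4 to 50.9 CPM; slope −0.13, SE 0.03, adjusted p = 0.000149). ABCC8, which encodes its sulfonylurea receptor subunit and is no member, fell as well (−0.29, adjusted p = 1.37e-06). KCNJ10, which carries potassium into astrocytes and oligodendrocytes, ranged from 1.45 to 24.9 CPM (median 4.62 CPM) with a slope of −0.32 (SE 0.07, adjusted p = 0.000331). Its partner KCNJ16 had a slope of −0.01 (4.19 to 14.0 CPM). Markers of astrocytes and oligodendrocytes also fell with the score, and their part in the slope of KCNJ10 was not tested. KCNJ13, known from the choroid plexus, rose with a slope of 0.19 (SE 0.06, adjusted p = 0.0159) and KCNJ14 with 0.19 (SE 0.07, adjusted p = 0.0219). Neither passed within file numbers 1 to 24, and KCNJ14 also lost its call in 5 further settings, such as without combination replicate 1 or increased cholecalciferol replicate 1.

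Of the background channels (KCNK), KCNK1 (ENSSSCG00000010163) rose from 169, 196 and 208 CPM at the low end of the score to 390, 375 and 449 CPM at the high end (slope 0.17, SE 0.02, adjusted p = 2.04e-08). KCNK10, a mechanosensitive channel gene, rose from 23.1, 24.7 and 20.0 CPM to 71.3, 66.7 and 124 CPM (slope 0.27, SE 0.03, adjusted p = 3.81e-11). Its close relative KCNK2 was at 21.1 to 61.6 CPM with a slope of −0.02 (95% interval −0.08 to 0.03), an interval that does not reach the slope of KCNK10. KCNK5 fell (0 to 3.47 CPM; slope −0.36, SE 0.09), with 2 libraries at 0. Among the KCNE genes, which encode small accessory subunits, KCNE3 fell (0 to 13.9 CPM; slope −0.41, SE 0.09, adjusted p = 0.000273) and KCNE4 did not pass (0 to 8.46 CPM). KCNK9, which granule cells are known to express, had 35 counts in all 34 libraries together and is no member.

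Without a model, 43 of 61 members correlated with the score (15 positive, 28 negative, permutation test with adjustment over the 61), and no correlation changed sign without the 2 libraries farthest from the median score. The size of Pearson's r was above 0.8 for 18 members. It was −0.95 for KCNV1 (rho = −0.90), −0.94 for KCNQ5 (rho = −0.90), 0.88 for KCNK10 (rho = 0.85), 0.87 for KCNT1 (rho = 0.86) and −0.01 for KCNA1 (rho = 0.13). The raw permutation p was 1e-05 for KCNV1, KCNQ5, KCNK10 and KCNT1, the smallest that the resamples can give, and the adjusted p was 2.65e-05. For KCNA1 the adjusted p was 0.942. Since the score has a step, the correlations were also computed on either side of it, a split made after the scores were seen. In the 27 libraries below the step 32 members correlated (11 positive, 21 negative), 29 of them among the 43. Of the 43, 42 kept their sign and KCNIP4 did not. There r was −0.84 for KCNV1 (rho = −0.81), −0.83 for KCNQ5 (rho = −0.82), 0.75 for KCNK10 (rho = 0.73) and 0.82 for KCNT1 (rho = 0.77), each with an adjusted permutation p of 6.1e-05. Members of the 43 that did not pass there include KCNN1 (r = −0.14), KCNH7 (−0.26), KCNK5 (−0.19) and KCNH5 (−0.21). Their adjusted permutation p was 0.552, 0.261, 0.42 and 0.372. KCNE3 (r = −0.39), KCNAB3 (0.40) and KCNK1 (0.42) did not pass either, with adjusted permutation p of 0.0769, 0.0735 and 0.0549. The slopes given above were fitted over all 34 libraries, on both sides of the step. The upper part of these 27 libraries includes file numbers 30 to 34, the shallowest (scores of 5.23 to 6.54). The permutations took no account of run, diet or sex, and the part of that run in these correlations was not tested. In the 7 libraries above the step 36 of the 43 kept their sign, and 0 members passed by an exact permutation test with adjustment over the 61 (6 had an unadjusted p below 0.05). There r was −0.82 for KCNV1, −0.66 for KCNQ5, 0.74 for KCNK10 and −0.04 for KCNT1.

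Where genes of a family, or a pore gene and its partner, had different slopes, the ratio between them changed. KCNC1 exceeded KCNC2 in all 34 libraries, by 1.61 to 27.6 times. The ratio of KCNT1 to KCNT2 ran from 1.26 to 70.0, also above 1 in all 34. For KCNIP4 over KCNIP2 it ran from 0.248 to 6.13 and passed 1 in 9 libraries, and for KCNAB3 over KCNAB2 from 0.173 to 1.51, above 1 in 6 libraries. KCND2 exceeded its partner KCNIP2 in 16 libraries, with ratios of 0.328 to 20.6. The leading KCNIP and KCNAB transcript thus differed between libraries of the same label. Each of 9 ratios computed, which also include KCNA1 over KCNA4 (KCNA1 itself did not change), followed the score (Pearson's r of 0.76 to 0.95, permutation p = 1e-05 before and after adjustment over the 9). The pairs were chosen after the slopes were known, so that these values describe the slopes in another form.

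**Figure D4:**
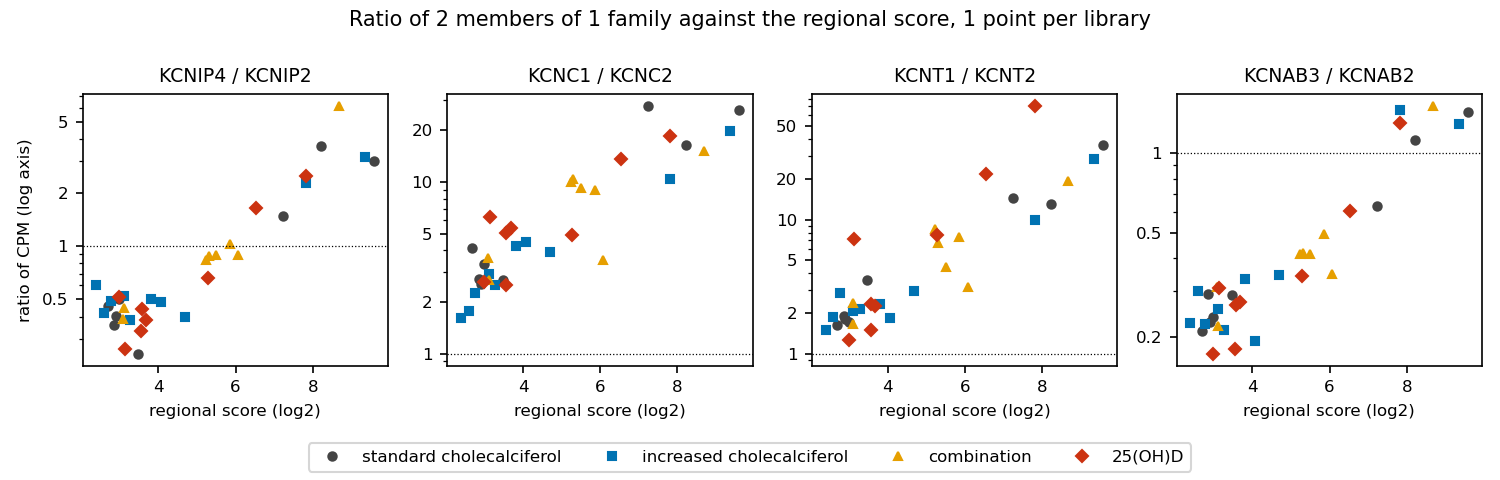
Ratio of the CPM of 2 members of 1 family (log axis) against the regional score, with 1 point per library and a dotted line at a ratio of 1. KCNIP4 over KCNIP2 and KCNAB3 over KCNAB2 cross 1 towards higher scores, while KCNC1 over KCNC2 and KCNT1 over KCNT2 stay above 1 throughout.

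Subunits that share a channel were also compared with each other, in 6 pairs over the 34 libraries, with adjustment over 7 (these and the pair of KCNJ13 and TTR given with the diets). KCNJ3 and KCNJ9 varied together (r = 0.579, adjusted permutation p = 0.00245; rho = 0.532, adjusted permutation p = 0.0098; r = 0.435 without the 2 libraries farthest from the median of KCNJ3). After the regional score, diet and sex had been taken out, r was 0.509 (adjusted permutation p = 0.0139). KCND2 and its partner KCNIP4 gave r = 0.504 (adjusted permutation p = 0.00781; r = 0.333 without the 2 libraries farthest from the median of KCND2), and 0.331 after removal (adjusted permutation p = 0.133). The BK channel pore KCNMA1 and its partner KCNMB4 gave r = 0.348 (adjusted permutation p = 0.0765) and 0.024 after removal. KCNJ3 with KCNJ6 (r = 0.238) and KCNA1 with KCNAB2 (r = 0.130) did not pass, with adjusted permutation p of 0.245 and 0.543. For the glial pair KCNJ10 and KCNJ16, r was 0.042 (adjusted permutation p = 0.811).

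Position was shared by few members. In the order of coding genes on the RefSeq assembly Sscrofa11.1, 3 pairs of members had at most 2 genes between them. KCNA3 and KCNA2 are neighbours with slopes of −0.20 and 0.05, KCNJ9 and KCNJ10 are neighbours with slopes of 0.03 and −0.32, and KCNJ2 and KCNJ16, with 1 gene between them, had slopes of −0.03 and −0.01. In the first 2 pairs 1 gene fell and the other did not pass. No source used here says whether the libraries were counted on this assembly.

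A list of 39 genes that bind potassium channels, anchor them or work beside them in the membrane held 30 tested genes, of which 7 rose and 11 fell along the score, against 18.5% rising and 18% falling of all genes. The largest falls belonged to LRRC55 (−0.33), a partner of KCNMA1, ABCC8 (−0.29), ADAM23 (−0.22), SCN3A (−0.22), a sodium channel, and DPP10 (−0.16), which joins KCND channels. The largest rises belonged to ADAM22 (0.11), a receptor of LGI proteins, SPTBN4 (0.11), a spectrin of the axon initial segment, ATP1B2 (0.09), a sodium pump subunit, LGI3 (0.09) and CNTN2 (0.07). The median slope over the 30 genes was −0.02.

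Skeletal muscle transcripts were compared next, since the tissue is labelled as muscle. Along the muscle score (mean log2 CPM of the 5 muscle markers, 5.50 to 8.59), 0 members changed, against 0.927% of all genes, and 2 of 61 members had an unadjusted p below 0.05, against 4.84% of all genes. These were KCNJ2, an inward rectifier that skeletal muscle expresses, with a slope of 0.51 (SE 0.19, adjusted p = 0.645; 3.00 to 27.3 CPM), and KCNN1 (0.65, SE 0.27, adjusted p = 0.811). DESeq2 and limma-voom called 0 members as well. With the regional score added to the model, 1 member rose and 0 fell, against 1.25% of all genes (1.22% rising, 0.0277% falling). This was KCNN1 (0.62, SE 0.16, adjusted p = 0.0388).

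Along the oligodendrocyte score (mean log2 CPM of the 4 markers, 7.43 to 9.62), 22 members changed, 10 rising and 12 falling, against 15.7% of all genes (7.64% rising, 8.08% falling). KCND2 (−0.87, SE 0.14), KCNK1 (−0.59, SE 0.09) and KCNK10 (−0.64, SE 0.16) fell, and KCNT2 (0.96, SE 0.23), KCNG1 (1.16, SE 0.30) and KCNIP2 (0.86, SE 0.25) rose. The oligodendrocyte and regional scores were correlated (r = −0.559). With both in the model, 2 members remained below the threshold, against 2.82% of all genes (2.08% rising, 0.747% falling). KCNJ2 rose with the oligodendrocyte score (0.66, SE 0.18, adjusted p = 0.0344) and KCNK1 fell (−0.32, SE 0.09, adjusted p = 0.0350). KCNJ10, which oligodendrocytes also express, is not among the 22. The counts along this score moved with single libraries. Without combination replicate 1 there were 12 (3 rising), without increased cholecalciferol replicate 1 12 (4 rising), without standard cholecalciferol replicate 6 12 (4 rising) and without 25(OH)D replicate 2 14 (5 rising). The 10 rising members became 5 without standard cholecalciferol replicate 1, 6 without standard cholecalciferol replicate 8, and 16 without increased cholecalciferol replicate 6 or replicate 8.

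Between diets, 0 of the 61 members changed in any comparison, as did 0% of all genes (edgeR; DESeq2 and limma-voom also called 0 members in each). The comparisons of 25(OH)D, increased cholecalciferol and the combination with the control share its 8 libraries. At an unadjusted p below 0.05, members numbered 1 for any difference among the 4 diets (949 genes in all), 1 for 25(OH)D against standard cholecalciferol (459 genes), 1 for the combination against increased cholecalciferol (594 genes), 3 for increased against standard cholecalciferol (1085 genes) and 3 for the combination against standard cholecalciferol (610 genes). The members listed below did not pass the adjusted threshold and are given as values.

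The 2 molecules were compared at matched doses in 2 pairs of diets. They differ by the hydroxyl group that 25(OH)D carries. For 25(OH)D against cholecalciferol at 2000 and 1500 IU per kg, the 95% interval of the difference lay within 2-fold for 34 of the 61 members, so that larger differences are not excluded for the other 27. KCND1 ranged from 0.511 to 2.05 CPM with cholecalciferol and from 0.686 to 4.26 CPM with 25(OH)D (log2 difference 1.02, 95% interval 0.19 to 1.85, adjusted p = 0.999), and the groups overlapped. KCNH8 differed by −0.60 (95% interval −1.32 to 0.12; −0.22 within file numbers 1 to 24). KCNJ10 differed by 0.89 (95% interval −0.20 to 1.98), and by 0.41 without 25(OH)D replicate 6 and 0.49 without 25(OH)D replicate 4.

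For the combination against increased cholecalciferol, at the same total dose (3000 IU per kg of grower and 2500 IU per kg of finisher feed), the interval lay within 2-fold for 31 of the 61 members. KCNH3 ranged from 8.34 to 76.0 CPM (median 32.8 CPM) with the combination and from 39.1 to 87.9 CPM (median 56.3 CPM) with increased cholecalciferol, with overlap. The difference was −0.69 (95% interval −1.36 to −0.03, adjusted p = 0.936), and −0.38 without file numbers 30 to 34. KCNIP2 had medians of 36.0 and 75.8 CPM and differed by −0.72 (95% interval −1.56 to 0.11), and by −0.34 with the regional, muscle and oligodendrocyte scores in the model. The part of the regional score in this difference was not tested.

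For the dose of cholecalciferol, increased against standard, the 3 smallest p-values belonged to KCNJ2, KCNJ9 and KCNN1. KCNJ2 was at 13.2 ± 6.45 CPM (SD, n = 10; median 11.4 CPM) with the increased dose and at 8.09 ± 2.21 CPM (SD, n = 8; median 7.64 CPM) with the standard dose. The difference was 0.72 (SE 0.29, adjusted p = 0.659), and 0.40 with the 3 scores in the model. KCNJ9 was at 68.9 ± 9.25 CPM (SD, n = 10) and 84.2 ± 17.0 CPM (SD, n = 8), a difference of −0.30 (SE 0.14, adjusted p = 0.661). KCNN1 differed by 0.78 (SE 0.38), and by 0.49 with the 3 scores in the model. The diets overlapped for each of the 3 genes.

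For 25(OH)D added to the control diet, the combination against standard cholecalciferol, KCND1 differed by 1.01 (SE 0.41, adjusted p = 0.999), and by 0.66 without combination replicate 6. KCNJ9 was at 66.9 ± 15.6 CPM (SD, n = 8) with the combination (−0.34, SE 0.15), and the difference was −0.68 within file numbers 1 to 24. KCNJ13 differed by 1.12 (SE 0.47, adjusted p = 0.999). Combination replicate 3 held 25.4 CPM of KCNJ13, against 0.705 to 8.37 CPM in the other 33 libraries, and without it the difference was 0.48. The same library also had the highest level of TTR, a choroid plexus transcript that is also made by liver (log2 CPM 6.96). Increased cholecalciferol replicate 8 was close to it in TTR (log2 CPM 6.94) but held 8.13 CPM of KCNJ13. Combination replicate 1 held 8.34 CPM of KCNJ13 with a low TTR level (log2 CPM 1.67). Over all 34 libraries KCNJ13 and TTR correlated with r = 0.484 (rho = 0.321, r = 0.305 without the 2 libraries farthest from the median of KCNJ13; adjusted permutation p = 0.00854 for r and 0.114 for rho). After the regional score, diet and sex had been taken out, r was 0.282 (adjusted permutation p = 0.184). The part of choroid plexus in these values was not tested.

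**Figure D5:**
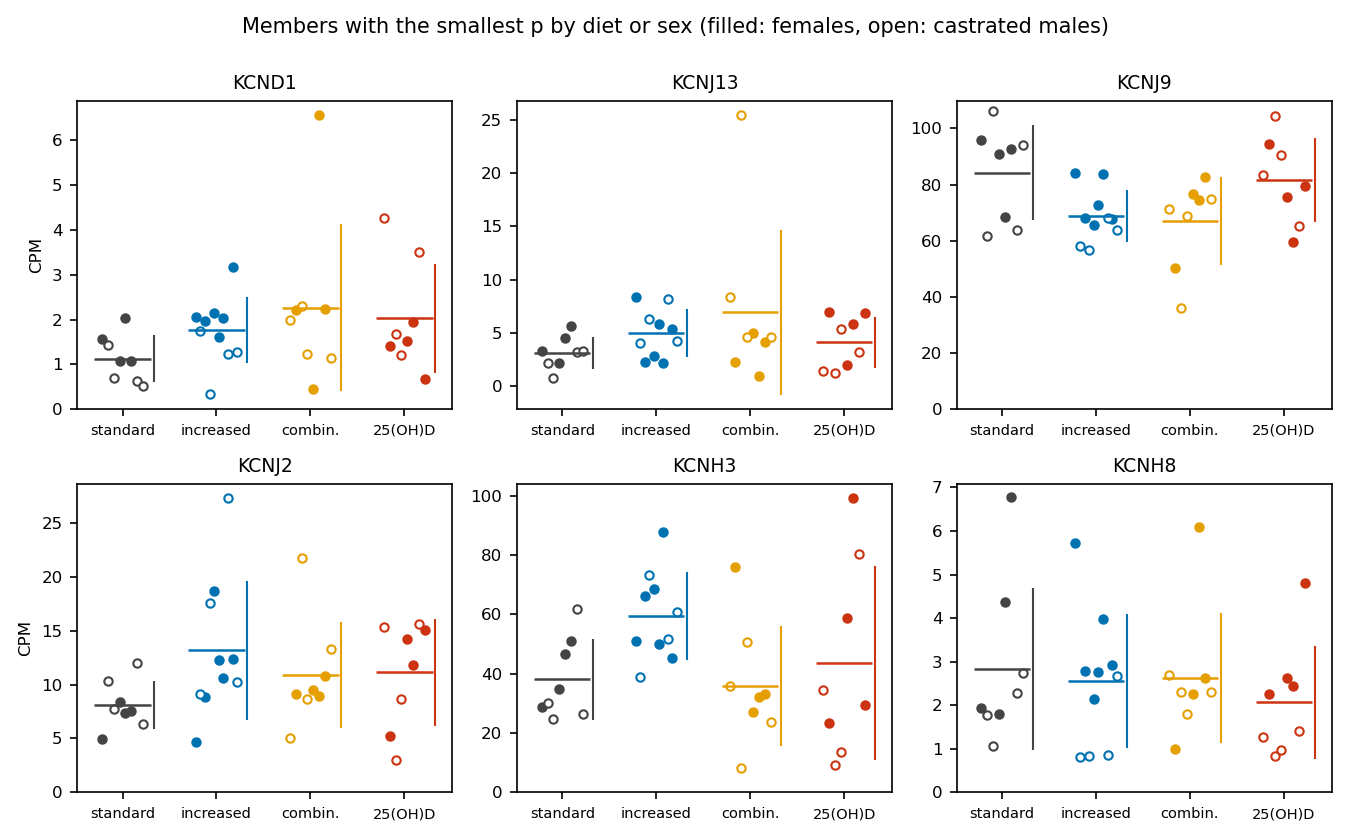
CPM of 6 members by diet, with 1 point per library (filled for females, open for castrated males), the mean as a line and the SD as a bar beside it. The diets overlap in each panel, and combination replicate 3 stands alone at 25.4 CPM of KCNJ13.

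Between the sexes, 0 members passed, against 0.0761% of all genes, and 4 of 61 had an unadjusted p below 0.05, against 6.69% of all genes. The 4 females of file numbers 30 to 34 held more Y chromosome transcripts than the other females, so that their labels or libraries are in doubt. Without that run 0 members passed as well. KCNH8 had the smallest p, with a median of 2.70 CPM (0.987 to 6.77 CPM, n = 18) in females and 1.59 CPM (0.802 to 2.74 CPM, n = 16) in castrated males. The groups overlapped. The difference was 1.00 (SE 0.25, p = 0.00027, adjusted p = 0.261), the adjusted p lay between 0.0634 (DESeq2) and 0.992 over the alternatives, and the difference between 0.74 and 1.16. Without file numbers 30 to 34 it was 0.96 (adjusted p = 0.487). KCNN3 differed by 0.38 (SE 0.18), with an adjusted p of 0.744, and by 0.34 without that run.

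Of the 86 genes with a matching symbol, 25 did not reach the count rule. They held at most 203 counts over all 34 libraries (KCNS1), and 3 held 0. Closest to the rule were KCNG3, a member with at least 10 counts in 8 libraries, KCNK5 in 11 and KCNA2 in 13, and on the other side KCNS1 in 6 and KCNMB1 in 4. KCNQ1 (78 counts), KCNE1 (18 counts) and KCNJ1 (0 counts), known from heart and kidney, were among the 25.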

How the data were processed

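The authors deposited 1 file of raw read counts per gene for each of 34 QuantSeq 3′ libraries from RNA extracted with Trizol, per the labels' protocols. FastQC, TopHat, HTSeq and DESeq2 are named in the submitters' processing notes, and no source used here gives the genome build, the annotation or the use of strand. HTSeq category lines entered neither library sizes nor tests: 16.4 to 29.9% of reads lay outside features, 3.63 to 4.68% were ambiguous and 11.2 to 20.7% aligned to several places, so that close paralogs may be undercounted.

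Genes with at least 10 counts in 8 libraries (14455, all 61 members included) were fitted with edgeR 4.0.16 in R 4.3.3 (TMM scaling, quasi-likelihood F-test) over all 34 libraries with diet and sex, and, for slopes, 1 score. P-values were two-sided and Benjamini-Hochberg adjusted over all genes, with a threshold of 0.05. Log2 CPM used a prior count of 3. Correlations used 100000 permutations (SciPy 1.17.1). DESeq2 1.42.0, limma 3.58.1 (voom), other filters, scalings and scores, the run of file numbers and leaving out each library were alternatives. The scripts were tested on simulated counts.

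Named are the 10 members with the highest mean, up to 10 per direction and slope past the threshold, the 3 with the smallest p per diet or sex comparison, and KCNA1, KCNA2, KCNC1, KCND2, KCNJ10, KCNJ11, KCNMA1, KCNK9 and KCNQ3. Other members were named to describe each family after their values were seen. The members and all gene lists were chosen with earlier results of these data known. Marker lists not given with the results, as median summed CPM, are granule cells (693), Purkinje cells (567), cortex (412), microglia (99.1), vessel wall (102), endothelium (106) and liver (254). MOBP, CNP and VWF did not pass the count rule. A few genes are left out of the text and figures and are not reported here. Replicates were numbered by accession, which pairs nothing. The series text counts pigs per diet, but the labels name no animals, so that p-values measure the spread between these libraries.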

Additional observations from a re-analysis of the deposited data

Results flagged for a closer look

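In a group of 4 to 10 libraries, a library that stands apart from the others of its diet was looked for in each diet for 42 named members, with Dixon's test at 95%. Of 168 groups, 12 held one, where chance gives about 8.4. In combination replicate 1, which has the highest regional score of its diet, KCNAB2 (59.9 CPM, group median 177 CPM), KCNIP2 (10.7 CPM, group median 36.0 CPM) and KCNK5 (0 CPM, group median 1.61 CPM) lay below the other libraries and KCNIP4 above them (65.6 CPM, group median 33.7 CPM). In increased cholecalciferol replicate 1, also the library with the highest score of its diet, KCND2 (229 CPM, group median 70.3 CPM) and KCNK1 (375 CPM, group median 199 CPM) lay above the others. KCNJ14 was high in standard cholecalciferol replicate 6 (5.94 CPM, group median 2.11 CPM). Single low values belonged to KCNJ3 in standard cholecalciferol replicate 2 (40.5 CPM), KCND1 in increased cholecalciferol replicate 4 (0.339 CPM), KCNE4 in increased cholecalciferol replicate 9 (0.243 CPM), KCNN1 in 25(OH)D replicate 2 (1.56 CPM) and KCNK5 in 25(OH)D replicate 1 (0 CPM).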

How the results depend on the processing

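The number of members that changed along the regional score was 41 in the main fit, where 36.5% of all genes changed. It lay between 37 (file numbers 1 to 24 alone) and 44 (limma-voom, and library totals) over the alternatives, and between 39 and 42 when each library was left out. Counts of members in the alternatives, here and in the results, mostly stand without the share of all genes. They therefore do not set the members apart from other genes. The number of members called between diets was 0 in every alternative run. Along the muscle score it was 0, and 1 (rising) with the regional score in the model. The oligodendrocyte slope was the least stable: its 22 members (10 rising, 12 falling) became 10 (3 rising, 7 falling) within file numbers 1 to 24, 2 (1 rising, 1 falling) with the regional score in the model, and 12 (4 rising) with the score over all listed genes. Leaving out 1 library gave 12 to 29 members, 3 to 16 of them rising. With the regional score in the model, the estimated oligodendrocyte slopes of KCNQ3 (−0.025), KCNAB2 (−0.073), KCNT1 (0.11) and KCNH2 (0.0095) changed sign. None of these genes passed the adjusted threshold in that model, so that a reversal was not shown. Without the regional score their slopes were 0.61, 0.53, −0.54 and −0.45. The cause of the change was not tested. No paired analysis was possible because replicate numbers are in accession order. Depth limits the members with low means, which had few counts in the libraries of 1.34 to 2.69 M. These are the members below 1 CPM and also low members between 1 and 10 CPM. Examples are KCND1 (mean 1.79 CPM), KCNH8 (2.53 CPM), KCNJ14 (2.57 CPM) and KCNN2 (3.05 CPM).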
